A study of Homo sapiens with 8 samples.

Results

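The heat shock proteins and the chaperones of the endoplasmic reticulum (ER) were examined as a group of 41 genes in CAL-27 cells treated with inhibitors of protein kinase C. Probes were taken by the gene name printed in the scanner tables, with HSPH1 also accepted under its older name HSP105, and their signals came from the authors' value table. This found 69 probes for 39 of the 41 genes, among 18849 named genes on the array. No probe carried the name HSPA1B, and HSPA9 was present only under the older name HSPA9B, which the naming did not cover. A gene was tested if its probe had a signal-to-noise score above 3 on at least 2 arrays, which left 38 genes: 20 cytosolic, 2 mitochondrial and 16 of the ER. The ER-associated degradation adaptor SEL1L was not tested, because its brighter probe passed that score on 1 array and its other probe on 0.

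CAL-27 is an established human head and neck squamous carcinoma line. The arrays held RNA from cells given 10 µM enzastaurin (n = 3), an inhibitor of protein kinase C, from cells given a compound called Go in the labels and counted there among the inhibitors, with no dose stated (n = 2), and from control cells (n = 3). All cells had been starved of serum for 24 h beforehand, and the treatments lasted 24 h. The labels name no vehicle for the controls, all arrays come from 1 line, and the labels leave unsaid whether replicates came from separate cultures, so the spread behind each p-value may be technical.

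Chaperones bind unfolded stretches of other proteins and help them to fold, to stay soluble or to be handed on for degradation. HSP70 proteins work in cycles of ATP hydrolysis set by J proteins and by nucleotide exchange factors such as the HSP110 and BAG families, and HSP90 proteins finish the folding of clients such as kinases and steroid receptors with the help of further co-chaperones. Heat shock factor HSF1 raises the cytosolic and mitochondrial members under proteotoxic stress, whereas the unfolded protein response, through ATF6, XBP1 and PERK, raises those of the ER.

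Some genes of the 2 programmes differ in the letters before their start sites, though most members held neither pattern searched here. A few upstream sequences are shown for members whose values are described below. A form of the heat shock element was searched: the blocks GAA, TTC and GAA, or TTC, GAA and TTC, each set 2 bases apart (any base between), for 13 bases in all. The search covered both strands of RefSeq windows of 300 bases (250 before and 50 after each start, GRCh38.p14), and overlapping matches were counted singly. Matches occurred in 6 of 19 cytosolic members with a window, in 1 of 3 mitochondrial members and in 0 of 16 ER members. The share was 0.608% of all 27305 genes with a window, and 0.49% of all 35116 windows. In the lines for CHORDC1 (chr11:90223050-90223299 on the minus strand), HSP90AA1 (chr14:102087045-102087294 on the minus strand) and HSP90AB1 (chr6:44247693-44247942 on the plus strand), the 250 bases before the start run 5′ to 3′ with these matches in capitals; the capitals of CHORDC1 hold 3 overlapping matches.
CHORDC1: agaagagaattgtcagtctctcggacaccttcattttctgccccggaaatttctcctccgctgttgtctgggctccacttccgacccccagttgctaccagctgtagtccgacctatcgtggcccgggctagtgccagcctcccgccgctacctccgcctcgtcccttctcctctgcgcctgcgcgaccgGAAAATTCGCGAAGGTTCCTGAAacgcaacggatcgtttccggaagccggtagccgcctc
HSP90AA1: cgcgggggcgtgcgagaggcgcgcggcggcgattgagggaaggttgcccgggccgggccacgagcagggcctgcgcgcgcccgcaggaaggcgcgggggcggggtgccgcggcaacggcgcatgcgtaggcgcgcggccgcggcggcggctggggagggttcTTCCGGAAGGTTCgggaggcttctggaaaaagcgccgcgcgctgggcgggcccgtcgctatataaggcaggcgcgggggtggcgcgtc
HSP90AB1: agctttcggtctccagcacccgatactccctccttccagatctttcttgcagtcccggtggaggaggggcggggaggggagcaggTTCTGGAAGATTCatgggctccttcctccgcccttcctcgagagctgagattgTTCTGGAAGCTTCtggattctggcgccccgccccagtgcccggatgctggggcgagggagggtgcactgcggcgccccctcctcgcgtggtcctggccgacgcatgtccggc

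The ER stress response element, CCAAT followed by CCACG with 9 bases of any kind between them, was searched likewise over its 19 bases. It occurred in 7 of 16 ER members (CALR, CANX, CRELD2, HSP90B1, HSPA5, PDIA6 and XBP1) and in 0 of 19 cytosolic and 0 of 3 mitochondrial members. The share was 0.0916% of all genes with a window, and 0.0769% of all windows. In the lines for HSPA5 (chr9:125241344-125241593 on the minus strand), PDIA6 (chr2:10812786-10813035 on the minus strand) and XBP1 (chr22:28800570-28800819 on the minus strand) the capitals mark it. A match describes letters in a window and says nothing of binding in these cells.
HSPA5: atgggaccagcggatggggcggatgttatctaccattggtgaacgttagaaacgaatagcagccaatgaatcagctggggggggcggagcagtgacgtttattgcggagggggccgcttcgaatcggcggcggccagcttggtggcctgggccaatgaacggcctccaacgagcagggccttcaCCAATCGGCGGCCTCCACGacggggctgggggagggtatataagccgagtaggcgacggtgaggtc
PDIA6: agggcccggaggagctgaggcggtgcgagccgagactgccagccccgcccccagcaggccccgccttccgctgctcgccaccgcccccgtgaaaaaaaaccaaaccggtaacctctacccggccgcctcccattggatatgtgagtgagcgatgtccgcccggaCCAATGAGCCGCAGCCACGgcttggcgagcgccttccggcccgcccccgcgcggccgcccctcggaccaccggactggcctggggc
XBP1: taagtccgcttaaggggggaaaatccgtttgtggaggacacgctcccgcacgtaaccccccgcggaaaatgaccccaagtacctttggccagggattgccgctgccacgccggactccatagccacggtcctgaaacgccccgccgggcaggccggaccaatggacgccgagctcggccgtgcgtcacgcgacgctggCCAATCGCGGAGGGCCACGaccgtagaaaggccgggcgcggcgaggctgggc

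Signals are given below as the log2 of the quantile-normalised value plus 50, each for the brightest probe of its gene, and differences are on the same scale, which understates the change of dim genes. Per array, 52.1% to 57.3% of probes passed the signal-to-noise score. Positions of the spots place control 1, 2 and 3 and Go 1 on slide 1, with all 3 enzastaurin arrays and Go 2 on slide 2. Enzastaurin and control thus share no slide, and between them treatment and slide cannot be told apart without the Go arrays, which link the slides. Control 1 and control 3 differed by a root mean square of 0.379, Go 1 and Go 2 by 0.374, and pairs of enzastaurin arrays by 0.118 to 0.152. Go 2 was nearer the enzastaurin arrays (0.301 to 0.316) than Go 1, and it differed from the controls by 0.508 to 0.728. Go 1 differed from the enzastaurin arrays by 0.403 to 0.417 and from the controls by 0.318 to 0.573, control 3 being nearest. Among the markers of the cell type, 8 of 9 squamous keratinocyte genes had a probe (KRT6A had none), and all 8 were above background on all 8 arrays. Of 7 fibroblast markers 4 were tested, and their summed signal was 10.23 to 10.63 on the log2 scale on the treated arrays and 7.67 to 9.50 on the controls, led by THY1. COL1A2 and COL3A1 were above background on 1 array and PDGFRB on 0. Of 5 endothelial and 6 leukocyte markers 2 and 4 were tested, with PECAM1, KDR, TEK and PTPRC above background on 0 arrays. The summed leukocyte signal was 9.96 to 10.73 on the treated arrays and 9.77 to 9.93 on the controls. HLA-DRA was the brightest of these and was higher (1.13 with enzastaurin and 0.50 with Go, both called). CD3E was lower (-0.69 and -0.41, both called), CD2 was at -0.27 and, called, at -0.40, and CD14 was at 0.00 and 0.04. With slide as a block in the fit, neither gene called in both comparisons passed. HLA-DRA was then at 0.54 (adjusted p = 0.0822) and 0.21 (0.224), and CD3E at -0.41 (0.16) and -0.27 (0.165). The part of these markers in the results was not tested. In such bulk samples, fewer cells of a type and less RNA per cell cannot be told apart.

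Under enzastaurin, 9 of the 38 members were higher than in control and 8 were lower, which is 44.7% of them, against 55.1% of all 13310 genes tested (18.4% higher and 36.7% lower). The share called was thus near that of all genes. The median difference was 0.01 for the members and -0.14 for all genes. Among 20 cytosolic members 6 were higher and 4 lower, among 16 ER members 2 were higher and 4 lower, and of 2 mitochondrial members 1 was higher. Under Go, 6 members were higher and 5 lower than in control, 28.9% against 31.5% of all genes (11.8% higher and 19.6% lower), with a median of -0.05 for the members and -0.11 for all genes. Enzastaurin and control arrays did not overlap in 11 members higher and 11 lower (57.9%, against 68.5% of all genes), and Go and control arrays in 6 higher and 10 lower (42.1%, against 57% of all genes). With Go, 5 of 20 cytosolic members were higher and 2 lower, and 1 of 16 ER members was higher and 3 lower. Both comparisons use the same 3 controls, so their values are set side by side below and are not independent.

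**Figure D1:**
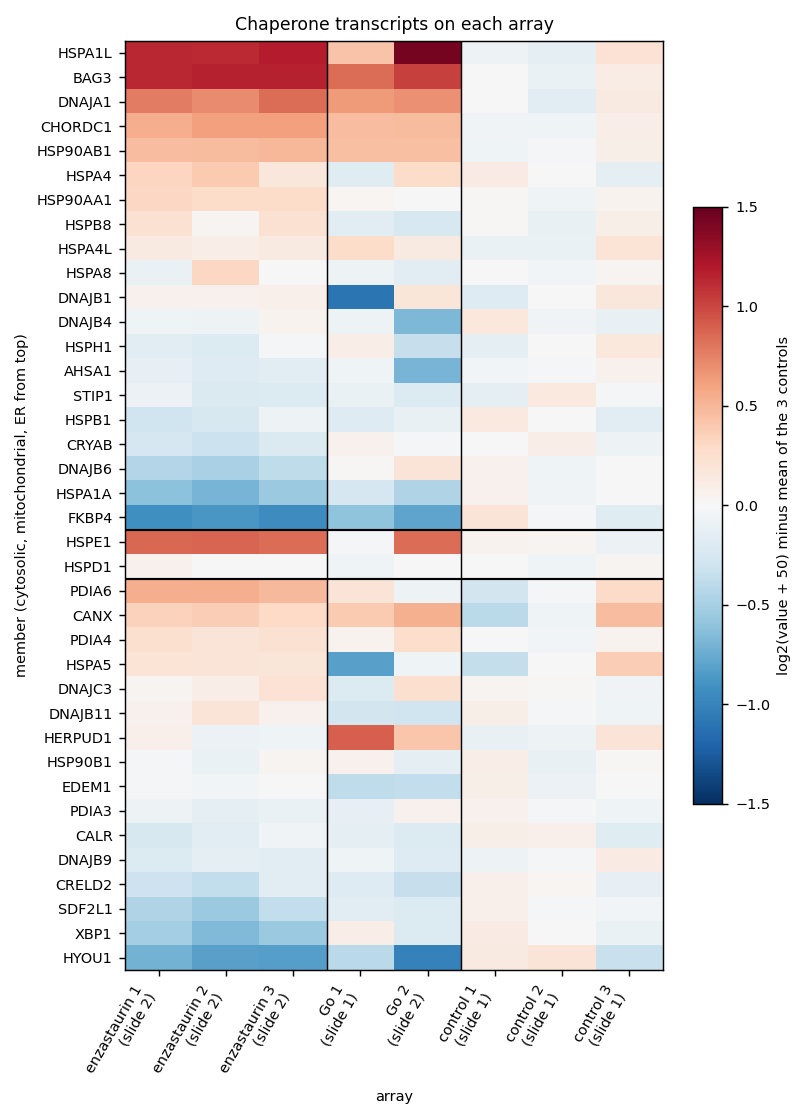
Signal of each of the 38 tested members (rows, by compartment and then by the enzastaurin difference) on each of the 8 arrays (columns), as log2(value + 50) minus the mean of the 3 controls; red is higher and blue lower. BAG3, DNAJA1, CHORDC1 and HSP90AB1 were red on all 5 treated arrays, whereas HSPE1 was red on the slide 2 arrays only, Go 2 included.

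The co-chaperones held the call that recurred in every setting tried. BAG3, which binds HSP70 and releases its nucleotide, and which also links HSP70 to small heat shock proteins, had signals of 10.80, 10.82 and 10.83 on the enzastaurin arrays and 10.51 and 10.69 on the Go arrays, against 9.66, 9.57 and 9.78 on the controls. Every treated array lay above every control. The difference was 1.14 for enzastaurin (2.21-fold, SE 0.0868, limma adjusted p = 0.000164) and 0.93 for Go (1.90-fold, SE 0.0971, limma adjusted p = 0.0027). On slide 1 alone Go 1 exceeded the controls by 0.83, and the fit with slide as a block gave 0.96 for enzastaurin (adjusted p = 0.0222) and 0.83 for Go (adjusted p = 0.00615). That fit takes the gap between slides from Go 1 and Go 2 alone. The other BAG3 probe gave 0.30 for enzastaurin (adjusted p = 0.106 over all probes) and 0.04 for Go (adjusted p = 0.865), so the rise rests on 1 of the 2 probes of this gene.

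CHORDC1, a zinc-binding partner of HSP90, had 11.62, 11.69 and 11.69 under enzastaurin and 11.54 and 11.56 under Go, against 11.03, 11.01 and 11.18 in control. Its treated arrays all lay above the controls. The differences were 0.59 (1.51-fold, adjusted p = 0.000648) and 0.47 (1.39-fold, adjusted p = 0.0102), and Go 1 stood 0.46 above the controls of its own slide. FKBP4, the immunophilin FKBP52 that HSP90 uses in steroid receptor complexes, moved the other way on its brightest probe. That probe read 11.48, 11.53 and 11.46 under enzastaurin and 11.80 and 11.61 under Go, against 12.59, 12.38 and 12.22 in control, with no overlap. It was lower, at -0.90 with enzastaurin (0.535-fold, adjusted p = 0.00045) and -0.69 with Go (0.618-fold, adjusted p = 0.00837). Its second probe was higher, by 0.85 with enzastaurin (adjusted p = 0.00266 over all probes) and 0.51 with Go (adjusted p = 0.0524), and with the mean of both probes the enzastaurin difference was -0.03, so no direction can be given for the gene. STIP1, which bridges HSP70 and HSP90, and AHSA1, which activates the HSP90 ATPase, did not pass in either comparison on their brightest probes (-0.17 and -0.16 with enzastaurin, -0.15 and -0.38 with Go). The second STIP1 probe was lower in both (-0.66, adjusted p = 0.00612 over all probes, and -0.75, adjusted p = 0.017).

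Both cytosolic HSP90 genes were higher with enzastaurin on their brightest probes. HSP90AB1, the constitutive form, had 13.50, 13.51 and 13.54 with enzastaurin and 13.49 and 13.49 with Go, against 12.97, 13.02 and 13.13 in control. The groups did not overlap, and the differences were 0.48 (1.39-fold, adjusted p = 0.00121) and 0.45 (1.37-fold, adjusted p = 0.0101). A second HSP90AB1 probe was lower (-0.72 with enzastaurin and -0.45 with Go, both past the threshold) and another higher (1.69 and 1.28, both past the threshold). HSP90AA1, the inducible form, had 14.76, 14.72 and 14.73 with enzastaurin and 14.48 and 14.44 with Go, against 14.47, 14.39 and 14.50 in control. The enzastaurin arrays stood above all others while the Go arrays lay within the range of the controls. HSP90AA1 was higher by 0.29 with enzastaurin (1.22-fold, adjusted p = 0.00937) and differed by 0.01 with Go (95% interval -0.17 to 0.19). All 4 HSP90AA1 probes were higher with enzastaurin (0.29 to 1.31), and 2 of the 4 with Go. RefSeq lists 5 pseudogenes named after HSP90AA1 and 6 after HSP90AB1, and the cross-reaction of these probes was not tested.

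The inducible HSP70 gene was lower, not higher. HSPA1A had 14.23, 14.15 and 14.29 with enzastaurin and 14.60 and 14.40 with Go, against 14.92, 14.80 and 14.84 in control. All 5 treated arrays lay below the controls, by -0.63 with enzastaurin (0.646-fold, adjusted p = 0.000702) and -0.36 with Go (0.781-fold, adjusted p = 0.0258). The 2 other HSPA1A probes, whose target lists also hold the near-identical HSPA1B, gave -0.63 and -0.44 with enzastaurin and -0.74 and -0.99 with Go; of these 4 values, -0.44 did not pass the threshold over all probes (adjusted p = 0.135). The brightest probe, whose target list holds HSPA1A alone, gives the call of this gene, and how far HSPA1B contributes to it was not tested.

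HSPA1L, an HSP70 best known from testis, had 6.95, 6.94 and 7.0 with enzastaurin and 6.25 and 7.26 with Go, against 5.74, 5.67 and 6.04 in control. It was above background on 2 enzastaurin arrays, 1 Go array and 0 control arrays. With controls raised, where lower, to the lowest signal above background, it was 2.19-fold higher with enzastaurin and 1.90-fold with Go. The treated means also hold arrays below background, so these folds are not firm lower bounds. HSPA1L entered the test only through the treated arrays, on which it is high, so its p-values are not given and its place among the calls supports nothing. Of the 35 members above background on all 8 arrays, which leave it out, 8 were higher and 7 lower with enzastaurin, and 5 higher and 5 lower with Go. Of all 10794 genes under that filter, 1996 were higher and 4005 lower with enzastaurin (55.6% called). With Go 1353 were higher and 2294 lower (33.8% called). The Go arrays of HSPA1L were 1.02 apart, the one on slide 2 being higher. With slide as a block its enzastaurin difference was 0.13 and its Go difference 0.43. HSPA8, the constitutive HSC70, had 15.50, 15.91 and 15.60 with enzastaurin and 15.52 and 15.44 with Go, against 15.61, 15.56 and 15.64 in control, with saturated pixels on 2 enzastaurin arrays. It did not pass on this brightest probe (0.07 with enzastaurin, 95% interval -0.18 to 0.31, and -0.13 with Go, 95% interval -0.40 to 0.15). Its 4 probes ranged between -0.39 and 0.70 with enzastaurin, where the 0.70 was called higher (adjusted p = 0.00753 over all probes), and between -0.86 and 0.48 with Go, where the -0.86 was called lower (adjusted p = 0.0195). RefSeq lists 20 pseudogenes that carry its name. Among the HSP110 exchange factors, HSPA4, HSPA4L and HSPH1 gave 0.29, 0.12 and -0.13 with enzastaurin and 0.04, 0.21 and -0.12 with Go on their brightest probes, none past the threshold. The second HSPA4 probe was higher with both (0.65, adjusted p = 0.00833 over all probes, and 0.66, adjusted p = 0.0263).

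DNAJA1, a J protein that stimulates HSC70, had 14.14, 14.08 and 14.21 with enzastaurin and 14.01 and 14.05 with Go, against 13.37, 13.21 and 13.51 in control. Treated and control arrays did not overlap, with differences of 0.78 (1.71-fold, adjusted p = 0.000473) and 0.66 (1.58-fold, adjusted p = 0.00671). Its second probe gave 0.43 and 0.21, neither past the threshold over all probes (adjusted p = 0.0757 and 0.431). DNAJB6, a J protein that keeps polyglutamine proteins from aggregating, was called lower with enzastaurin on its brightest probe. It had 11.32, 11.27 and 11.38 with enzastaurin and 11.78 and 11.95 with Go, against 11.82, 11.70 and 11.75 in control; only the enzastaurin arrays stood apart (-0.43, 0.741-fold, adjusted p = 0.00267), while Go differed by 0.11 (adjusted p = 0.359). A second probe was lower with both (-0.83, adjusted p = 0.000414 over all probes, and -0.29, adjusted p = 0.0421), and the other 2 passed with neither (-0.12 and 0.34 with enzastaurin, -0.19 and 0.31 with Go).

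DNAJB1, the J protein HSP40 that partners inducible HSP70, had 10.69, 10.68 and 10.70 with enzastaurin and 9.52 and 10.80 with Go, against 10.43, 10.63 and 10.79 in control. Go 1 alone was low, 1.29 below Go 2. DNAJB1 passed in neither comparison (0.07 with enzastaurin, adjusted p = 0.834, and -0.46 with Go, adjusted p = 0.254); with slide as a block, where Go 1 sets the difference between slides, it was called lower with both (-1.22, adjusted p = 0.0208, and -1.10, adjusted p = 0.00478). DNAJB4 did not pass (-0.03 and -0.38). Of the small heat shock proteins, which hold unfolded proteins without ATP, CRYAB was lower with enzastaurin (-0.26, adjusted p = 0.0216) but was above background on only 1 array of each group. HSPB1 (HSP27) had 14.04, 14.10 and 14.26 with enzastaurin and 14.15 and 14.23 with Go, against 14.49, 14.35 and 14.18 in control. On this brightest probe the groups overlapped, and HSPB1 did not pass (-0.20, adjusted p = 0.119, and -0.15, adjusted p = 0.327), nor did HSPB8 (0.16 and -0.21). A second HSPB1 probe was lower with enzastaurin (-0.53, adjusted p = 0.00734 over all probes) and at -0.4 with Go (adjusted p = 0.0541). The remaining HSPB1 probe passed with neither (0.14 and 0.22).

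**Figure D2:**
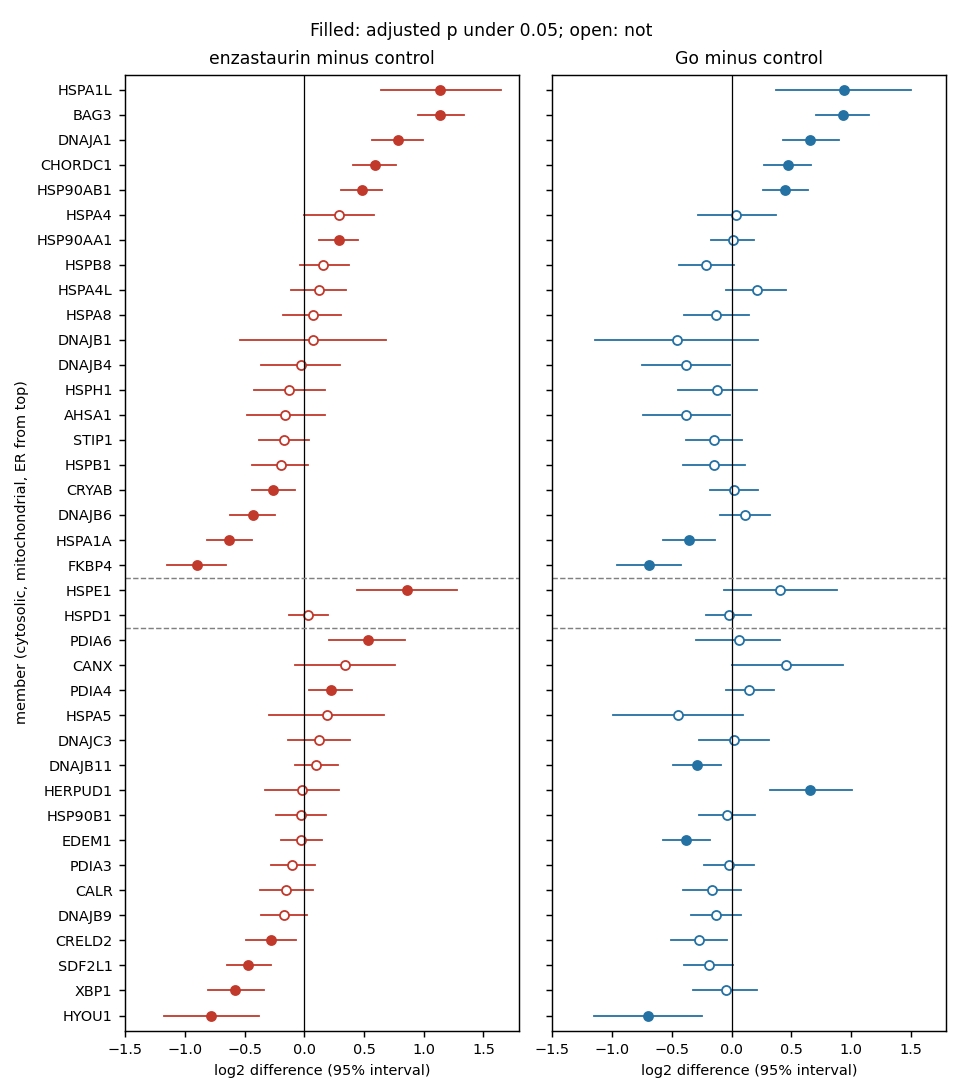
Log2 difference of each of the 38 tested members (rows) for enzastaurin minus control (left) and Go minus control (right), with 95% intervals from the limma fit; filled points have an adjusted p under 0.05 over 13310 genes and open points do not. BAG3 stands at 1.14 and 0.93 and HYOU1 at -0.78 and -0.70, and HERPUD1 is filled on the right only. The point of HSPE1 (left) stands for a lower bound because of saturation. The points of HSPA1L (both sides) are uncertain because arrays of all groups were below background.

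The mitochondrial chaperonin is a barrel of HSPD1 (HSP60) closed by a lid of HSPE1 (HSP10). HSPE1 had 15.71, 15.72 and 15.69 with enzastaurin and 14.83 and 15.69 with Go, against 14.90, 14.89 and 14.76 in control. The values divide by slide and not by treatment: Go 1 lay among the controls and Go 2 among the enzastaurin arrays. All 3 enzastaurin arrays held saturated pixels, so HSPE1 was at least 1.81-fold higher with enzastaurin (adjusted p = 0.00476), while the fit with slide as a block gave -0.01 (adjusted p = 0.967). RefSeq lists 28 pseudogenes named after HSPE1 and 22 after HSPD1. The brightest HSPD1 probe read 16, 15.94 and 15.94 with enzastaurin and 15.87 and 15.94 with Go, against 15.94, 15.87 and 15.97 in control. It held saturated pixels on all 8 arrays and gives no fold. Its second probe, with no saturated pixels, read 10.09, 10.15 and 10.26 with enzastaurin and 9.75 and 9.66 with Go, against 8.04, 8.45 and 9.09 in control. It was higher by 1.64 with enzastaurin (adjusted p = 0.00114 over all probes) and by 1.18 with Go (adjusted p = 0.0179). HSPA9, the mitochondrial HSP70 mortalin, read through its probe HSPA9B by RefSeq accession after its values were seen, gave -0.01 with enzastaurin and 0.03 with Go, neither past the threshold over all probes (adjusted p = 0.966 and 0.831).

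In the ER the main HSP70 and HSP90 proteins were not called. HSPA5 (BiP), whose upstream sequence is printed above, had 10.11, 10.10 and 10.09 with enzastaurin and 9.10 and 9.84 with Go, against 9.55, 9.91 and 10.28 in control. The controls alone spanned 0.74 between control 1 and control 3, wide enough to hold the enzastaurin arrays. The differences were 0.19 with enzastaurin (95% interval -0.30 to 0.67, adjusted p = 0.477) and -0.45 with Go (95% interval -0.99 to 0.10, adjusted p = 0.171), and the second probe gave 0.18 and -0.28. HSP90B1 (GRP94) had 14.72, 14.65 and 14.79 with enzastaurin and 14.81 and 14.62 with Go, against 14.85, 14.64 and 14.77 in control. These overlapped, and the differences were -0.03 and -0.04, with intervals of -0.24 to 0.18 and -0.27 to 0.20. HYOU1, the exchange factor of HSPA5, was lower: it had 7.24, 7.14 and 7.12 with enzastaurin and 7.55 and 6.94 with Go, against 8.08, 8.14 and 7.62 in control. No treated array reached a control, and the differences were -0.78 (0.583-fold, adjusted p = 0.00622) and -0.70 (0.615-fold, adjusted p = 0.0303). With slide as a block they were -0.16 (adjusted p = 0.716) and -0.39 (adjusted p = 0.2).

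Of the disulfide isomerases, which form and exchange disulfide bonds in folding proteins, PDIA6 had 12.22, 12.21 and 12.16 with enzastaurin and 11.86 and 11.59 with Go, against 11.40, 11.64 and 11.96 in control. Enzastaurin arrays lay above all others, while Go and control overlapped. PDIA6 was higher by 0.53 with enzastaurin (1.44-fold, adjusted p = 0.0124) and differed by 0.06 with Go (adjusted p = 0.789). PDIA4 was higher by 0.22 with enzastaurin (adjusted p = 0.046) and did not pass with Go (0.15). The brightest probe of PDIA3 did not pass (-0.10 and -0.02); its 3 probes, whose target lists also name the pseudogene PDIA3P1, gave calls in both directions with enzastaurin (-0.27 and 0.44). The lectin chaperones CALR and CANX, which hold glycoproteins during folding, did not pass (-0.15 and 0.34 with enzastaurin, -0.16 and 0.46 with Go).

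XBP1, the transcription factor activated by IRE1 splicing, had 11.16, 11.01 and 11.11 with enzastaurin and 11.77 and 11.47 with Go, against 11.79, 11.66 and 11.57 in control. Enzastaurin arrays were below all others (-0.58, 0.669-fold, adjusted p = 0.00214), and Go overlapped the controls (-0.05, adjusted p = 0.744). The second XBP1 probe gave 0.34 with enzastaurin, not past the threshold (adjusted p = 0.125 over all probes), and a total signal does not separate spliced from unspliced XBP1. SDF2L1, which keeps BiP clients from aggregating, was lower with enzastaurin (13.57, 13.46 and 13.65, against 14.10, 13.99 and 13.98 in control; -0.47, 0.724-fold, adjusted p = 0.00188), as was CRELD2 (-0.28, adjusted p = 0.0313). With Go, whose arrays read 13.85 and 13.82 for SDF2L1, neither passed (-0.19 and -0.27).

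HERPUD1, which helps to assemble the complex that retrotranslocates misfolded ER proteins, moved under Go. It had 11.04, 10.87 and 10.89 with enzastaurin and 11.86 and 11.38 with Go, against 10.85, 10.88 and 11.15 in control. Both Go arrays stood above all others, by 0.66 over control (1.58-fold, adjusted p = 0.0174), while enzastaurin differed by -0.02 (95% interval -0.33 to 0.29). On slide 1 Go 1 exceeded the controls by 0.90, and on slide 2 Go 2 exceeded the enzastaurin arrays by 0.45. EDEM1, which marks misfolded glycoproteins for degradation, had 8.15, 8.13 and 8.16 with enzastaurin and 7.79 and 7.80 with Go, against 8.26, 8.08 and 8.18 in control. The Go arrays were below all others (-0.38, 0.770-fold, adjusted p = 0.0165), and its second probe was lower with both inhibitors (-0.24 with enzastaurin and -0.32 with Go, both past the threshold over all probes).

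Among the ER J proteins, DNAJB11 (ERdj3), a BiP partner for nascent chains, had 11.66, 11.79 and 11.66 with enzastaurin and 11.33 and 11.30 with Go, against 11.69, 11.58 and 11.54 in control. Its Go arrays lay below all others (-0.29, 0.819-fold, adjusted p = 0.0389), and enzastaurin differed by 0.10 (adjusted p = 0.303). DNAJB9 (ERdj4) and DNAJC3 (p58IPK), the inhibitor of PERK, did not pass with enzastaurin (-0.17 and 0.12) or Go (-0.13 and 0.02). SEL1L, the untested member, read 7.81, 7.86 and 8.14 with enzastaurin and 8.09 and 8.19 with Go, against 7.93, 8.17 and 8.07 in control on its brighter probe, with the 3 groups overlapping.

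Set against the sequences printed above, members with and without the letters were called in both directions with enzastaurin. Of the 6 cytosolic members with a heat shock element match, 4 were higher with enzastaurin (CHORDC1, DNAJA1, HSP90AA1 and HSP90AB1), DNAJB6 was lower and HSPA8 was not called; with Go 3 were higher (CHORDC1, DNAJA1 and HSP90AB1) and 0 lower. Of 12 tested cytosolic members with a window but no match, 2 were higher and 1 lower with enzastaurin, and likewise with Go. BAG3, with the largest called fold among the members above background in all groups, had no match in its window. Of the 7 ER members with an ER stress response element match, PDIA6 was higher and CRELD2 and XBP1 lower with enzastaurin. With Go 0 of the 7 were called in the limma fit, and 1 had an unadjusted p under 0.05, CRELD2 at -0.27 (unadjusted p = 0.0287, adjusted p = 0.0732). Of 8 tested ER members with a window but no such match, 1 was higher and 2 lower with enzastaurin, and 1 higher and 3 lower with Go. Of all genes, 18.4% were higher and 36.7% lower with enzastaurin, and 11.8% and 19.6% with Go. Counts of this size are given as a description.

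**Figure D3:**
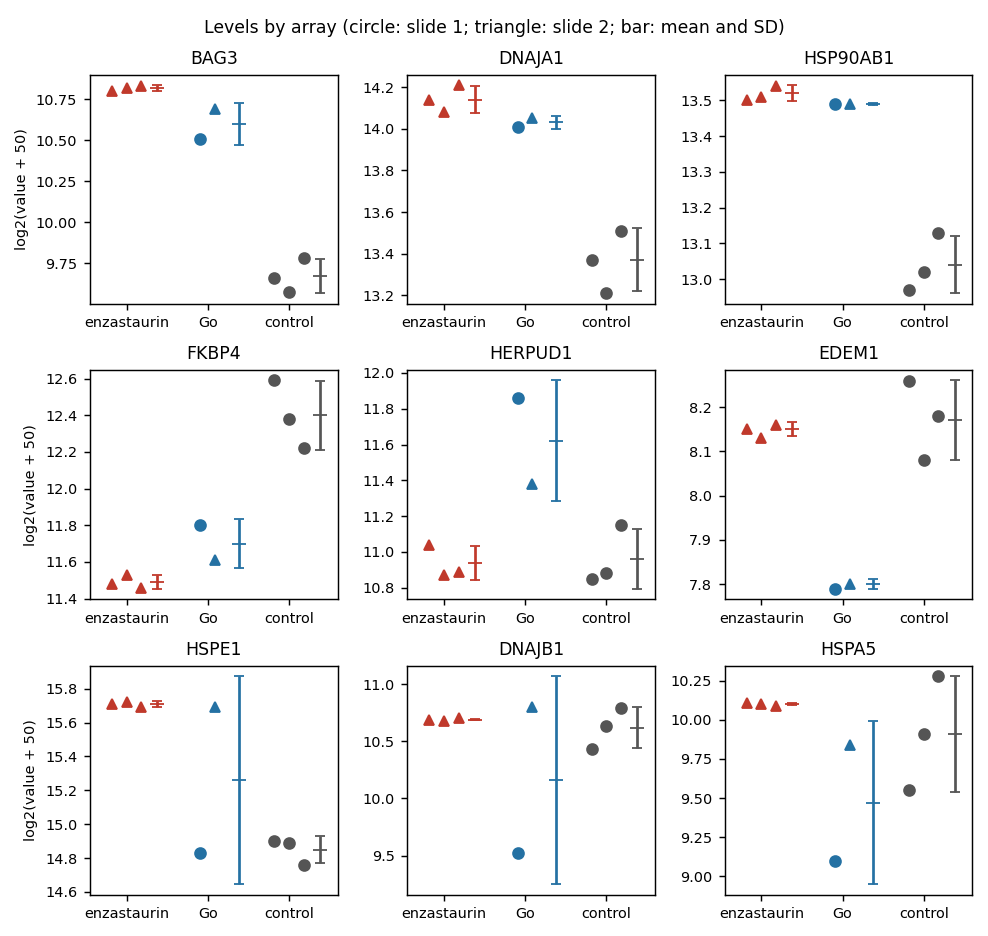
Log2(value + 50) of 9 members on each array, for enzastaurin (red), Go (blue) and control (grey); circles are slide 1 arrays, triangles slide 2 arrays, and the bar beside each group is its mean with the SD. In BAG3, DNAJA1 and HSP90AB1 the Go array of slide 1 stands with the treated arrays; in HSPE1 it stands with the controls at 14.83, and in DNAJB1 and HSPA5 it is the lowest array, at 9.52 and 9.10.

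Most of these calls were lost once the slide entered the fit. With slide as a block, 2 of 38 members were called for enzastaurin (BAG3 higher and DNAJB1 lower), against 3.46% of all genes, and 7 for Go, against 5.94% of all genes. In that fit the Go difference equals Go 1 against the 3 controls of its slide. The enzastaurin difference in it is that without slide less the gap between Go 2 and Go 1, so it also depends on single Go arrays. Those higher were BAG3, HERPUD1 (0.90, adjusted p = 0.0124), DNAJA1 (0.64, adjusted p = 0.0314), HSP90AB1 (0.45, adjusted p = 0.0441) and CHORDC1 (0.46, adjusted p = 0.048), and those lower were DNAJB1 and FKBP4 (-0.60, adjusted p = 0.05 as rounded). Several enzastaurin differences kept much of their size in that fit without passing: DNAJA1 was at 0.73 (adjusted p = 0.069), CHORDC1 at 0.57 (0.0768), FKBP4 at -0.71 (0.0834), HSP90AB1 at 0.47 (0.0961), HSP90AA1 at 0.32 (0.182), SDF2L1 at -0.44 (0.129), HSPA1A at -0.43 (0.117), DNAJB6 at -0.61 (0.0613) and PDIA6 at 0.80 (0.111). Others shrank: XBP1 to -0.27 (adjusted p = 0.32), CRELD2 to -0.12 (0.674), PDIA4 to 0.01 (0.966), HYOU1 to -0.16, HSPA1L to 0.13 and HSPE1 to -0.01. CRYAB was at -0.19 (adjusted p = 0.44). Of the lost Go calls, EDEM1 stayed at -0.38 (adjusted p = 0.0682) and DNAJB11 at -0.27 (0.145), HSPA1A was at -0.26 (0.148), and HYOU1 and HSPA1L were at -0.39 and 0.43. Leaving out 1 array ended 3 of the 17 enzastaurin calls in at least 1 of 8 cases: CRELD2 (without enzastaurin 1 or 2 or control 1 or 2, adjusted p up to 0.114), CRYAB (without enzastaurin 1 or 2 or control 2, up to 0.0897) and PDIA4 (without any enzastaurin array or control 1 or 2, up to 0.139). It ended 7 of the 11 Go calls: without Go 2, those of HSPA1L, HYOU1 (-0.39, adjusted p = 0.2), HSPA1A (-0.25, adjusted p = 0.152), FKBP4 (-0.60, adjusted p = 0.0503), EDEM1 (-0.38, adjusted p = 0.0685) and DNAJB11 (-0.27, adjusted p = 0.143). Without control 1 or control 2, HERPUD1 was at 0.61 and 0.62 (adjusted p = 0.0508 and 0.0618), and HSPA1L, HSPA1A, HYOU1 and DNAJB11 also lost the call (adjusted p up to 0.0963); HYOU1 and DNAJB11 lost it without any 1 enzastaurin array too, and DNAJB11 without Go 1.

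Probes of the same gene differed widely. Counted singly, 17 of the 67 tested member probes were higher and 15 lower with enzastaurin, against 51.9% of all 24771 probes called, and 12 were higher and 12 lower with Go, against 28.9%. Of 19 members with several tested probes, 5 had the same call on all of them with enzastaurin and 8 with Go. Calls in opposite directions occurred in 3 with enzastaurin (FKBP4, HSP90AB1 and PDIA3) and 1 with Go (HSP90AB1). The median gap between the highest and lowest probe of a gene was 0.67 with enzastaurin and 0.62 with Go. Which transcripts or copies each probe reads was not tested, and the call of a gene here is that of its brightest probe.

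**Figure D4:**
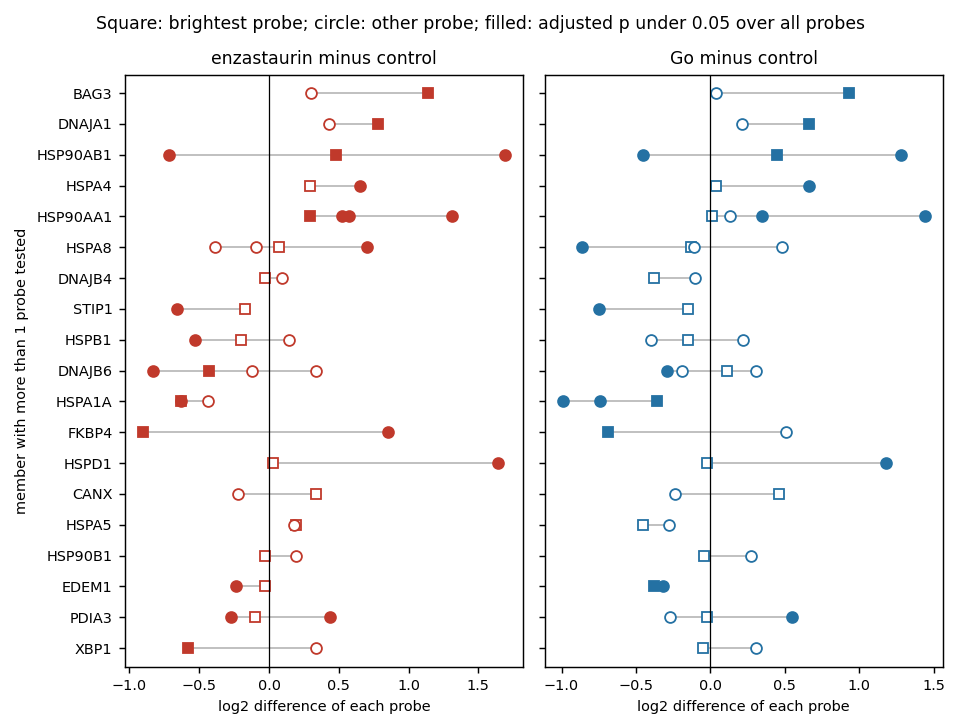
Log2 difference of every tested probe of the 19 members with more than 1, for enzastaurin minus control (left) and Go minus control (right); squares are the brightest probe of a gene, circles the others, and filled symbols have an adjusted p under 0.05 over 24771 probes. Probes of FKBP4 stand at -0.90 and 0.85 with enzastaurin, and those of HSP90AB1 span 2.41, the widest gap on the left.

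Go and enzastaurin were compared directly, at doses that cannot be matched since that of Go is not stated. Go was higher than enzastaurin in 3 members and lower in 2, 13.2% of 38 against 7.18% of all genes (4.31% higher and 2.86% lower), with medians of -0.04 and 0.04. Their arrays did not overlap in 8 members higher and 12 lower (52.6%, against 48% of all genes). The higher ones were HERPUD1 (0.69, 1.61-fold, adjusted p = 0.0329), DNAJB6 (0.54, 1.46-fold, adjusted p = 0.0124) and XBP1 (0.53, 1.44-fold, adjusted p = 0.0321), and the lower ones DNAJB11 (-0.39, 0.764-fold, adjusted p = 0.0361) and EDEM1 (-0.35, 0.785-fold, adjusted p = 0.0438). Probe by probe, 2 of 67 were higher and 0 lower, against 3.81% of all probes called, and both were DNAJB6 probes at 0.54. The 2 other DNAJB6 probes gave -0.06 and -0.02. The second XBP1 probe gave -0.04 and the second EDEM1 probe -0.08, neither past the threshold over all probes. When probes were averaged, the calls of DNAJB6 (0.25, adjusted p = 0.0933), XBP1 (0.25, adjusted p = 0.268) and EDEM1 (-0.21, adjusted p = 0.129) were lost. On slide 2 alone Go 2 stood above the enzastaurin arrays by 0.63 in DNAJB6, 0.45 in HERPUD1 and 0.37 in XBP1, and below them by -0.40 in DNAJB11 and -0.34 in EDEM1. With slide as a block DNAJB6 (0.63, adjusted p = 0.0166), AHSA1 (-0.54, adjusted p = 0.023) and DNAJB4 (-0.64, adjusted p = 0.0299) were called, against 6.68% of all genes. In that fit the difference equals Go 2 against the enzastaurin arrays of its slide, so it rests on 1 Go array. AHSA1 read 11.44 on Go 2 but 12.08 on Go 1, against 12.02, 11.95 and 11.97 with enzastaurin. DNAJB4 read 7.59 on Go 2 but 8.18 on Go 1, against 8.19, 8.18 and 8.31 with enzastaurin.

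For 8 members called under both inhibitors, Go minus enzastaurin lay between -0.22 and 0.27. The share of all genes called under both was not counted, and both comparisons use the same controls. Nothing is therefore read from the number of such members. BAG3 differed by -0.22 (95% interval -0.44 to 0.00), CHORDC1 by -0.12 (-0.32 to 0.08), DNAJA1 by -0.11 (-0.35 to 0.12) and HSP90AB1 by -0.03 (-0.22 to 0.16). FKBP4 differed by 0.21 (-0.06 to 0.48), HYOU1 by 0.08 (-0.37 to 0.53) and HSPA1L by -0.21 (-0.77 to 0.36). HSPA1A was the widest apart at 0.27 (0.06 to 0.49), with both Go arrays above all enzastaurin arrays, but did not pass after adjustment (adjusted p = 0.116). None of the 8 passed, which does not show that the inhibitors act alike. Each of the 5 Go-against-enzastaurin calls was lost without at least 2 single arrays: HERPUD1 without enzastaurin 1, 2 or 3, Go 1 or control 2 (adjusted p up to 0.121), XBP1 without the same arrays (up to 0.126), DNAJB6 without enzastaurin 1 or 2 (up to 0.0686), and DNAJB11 and EDEM1 without enzastaurin 1, 2 or 3, Go 1 or 2, or control 2 (up to 0.139 and 0.151).

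Other genes of the same pathways were counted by lists, whose counts are to be read against all genes tested: 18.4% higher and 36.7% lower with enzastaurin, and 11.8% and 19.6% with Go. The lists are small, and nothing is called particular to any of them. Of 4 heat shock factors and regulators, the factor HSF1 was higher (1.07 with enzastaurin, adjusted p = 0.00289, and 0.71 with Go, adjusted p = 0.0442) and HSF4 lower (-1.63, adjusted p = 0.000669, and -1.08, adjusted p = 0.0165), while HSF2 and the HSF1-binding HSBP1 did not pass. HSF1 divided by slide: Go 1 read 11.12 and Go 2 12.11, against 10.90, 10.88 and 10.92 in control, and with slide as a block it was at 0.08 for enzastaurin (adjusted p = 0.74) and 0.22 for Go (adjusted p = 0.17). HSF4 was then at -0.65 (adjusted p = 0.109) and -0.59 (adjusted p = 0.0602). Of 24 other cytosolic chaperones tested, 3 were higher and 8 lower with enzastaurin, and 2 higher and 6 lower with Go, led by BAG2, an HSP70 exchange factor (1.32, adjusted p = 0.00084, and 0.88, adjusted p = 0.0191). The small heat shock protein HSPB6 was lower with both (-0.85, adjusted p = 0.000776, and -0.66, adjusted p = 0.0123), as was the phosphatase PPP5C, an HSP90 partner (-0.53, adjusted p = 0.0223, and -0.67, adjusted p = 0.0262). In the chaperonin CCT and its partner prefoldin, which fold actin and tubulin, 0 of 14 subunits were higher and 5 lower with enzastaurin (CCT3, CCT5, CCT8, PFDN1 and PFDN4, from -0.56 to -0.20), and 0 were higher and 1 lower with Go (CCT8, -0.46). Of 14 other mitochondrial chaperones and proteases 5 were higher and 4 lower with enzastaurin and 6 higher and 4 lower with Go. The largest difference among them was that of HSCB, a J protein of iron-sulfur cluster assembly (1.82, adjusted p = 0.000391, and 1.28, adjusted p = 0.00847). The inner membrane protease YME1L1 was also higher with both (0.92, adjusted p = 0.00117, and 0.66, adjusted p = 0.0196), as was DNAJC19, a J protein of that membrane (0.74, adjusted p = 0.00952, and 1.16, adjusted p = 0.00892).

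Of 23 other ER folding genes 10 were higher and 3 lower with enzastaurin, with a median of 0.22, and 3 were higher and 5 lower with Go, with a median of 0.06. FKBP2, an ER prolyl isomerase, was higher with both (1.5, adjusted p = 0.00203, and 0.91, adjusted p = 0.0459), but Go 1 read 13.03 and Go 2 14.34, against 12.70, 12.85 and 12.77 in control, and with slide as a block it was at 0.19 (adjusted p = 0.421) and 0.25 (adjusted p = 0.143). The disulfide isomerase TXNDC5 was higher with enzastaurin (1.0, adjusted p = 0.00183, and 0.20, adjusted p = 0.399, with slide as a block), and the prolyl isomerase PPIB was lower with Go (-0.48, adjusted p = 0.0146). In ER-associated degradation 3 of 17 genes were higher and 6 lower in each comparison, the largest differences being those of FAF2 (1.33, adjusted p = 0.000435, and 1.11, adjusted p = 0.00637) and OS9, a lectin that delivers misfolded glycoproteins (1.27, adjusted p = 0.00041, and 1.0, adjusted p = 0.0069). Of 13 sensors and PERK-branch genes 3 were higher and 6 lower with enzastaurin, and 2 higher and 1 lower with Go. MBTPS1, the site-1 protease that cleaves ATF6, was higher with both (0.70, adjusted p = 0.0015, and 0.89, adjusted p = 0.00527). ATF3 was higher by 0.88 with Go (adjusted p = 0.00431) and 0.51 with enzastaurin (adjusted p = 0.00332). CHAC1, a glutathione-degrading target of ATF4, was lower with enzastaurin (-0.87, adjusted p = 0.0147). A pair of regulators were added after their values were seen. The PERK effector ATF4 was lower with enzastaurin (-0.55, adjusted p = 0.00474) and at 0.22 with Go (adjusted p = 0.22). DDIT3, the proapoptotic CHOP, did not pass in the fit without slide (-0.21 and 0.19). With slide as a block, 1 gene of these 7 lists was called for enzastaurin (lower, among the other cytosolic chaperones), against 3.46% of all genes. For Go 6 were higher and 2 lower with slide as a block, against 5.94% of all genes called. In that fit the enzastaurin differences of YME1L1 (1.13), FAF2 (1.04), HSCB (0.98), OS9 (0.69), HSPB6 (-0.67), DNAJC19 (0.61), BAG2 (0.53) and ATF3 (0.46) did not pass, with adjusted p between 0.0578 and 0.322. MBTPS1 was at 0.29, PPP5C at 0.16, CCT8 at -0.13, ATF4 at -0.16 and CHAC1 at -0.06, with adjusted p between 0.288 and 0.927. For Go, HSCB (0.86), FAF2 (0.97), OS9 (0.72), ATF3 (0.85), MBTPS1 (0.68) and DDIT3 (0.76) were called higher in it. DDIT3 read 9.72 on Go 1 and 8.59 on Go 2, against 8.94, 8.85 and 9.11 in control. Not called were BAG2 (0.49), HSPB6 (-0.57), PPP5C (-0.33), CCT8 (-0.24), PPIB (-0.35), DNAJC19 (1.10) and YME1L1 (0.77).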

How the data were processed

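The members, the lists and the tests were chosen with earlier results of these data known. By comparison with the scanner tables, the deposited value table holds intensity from which the authors had subtracted background, linear and unnormalised, and never below 0.5 (array medians 38 to 56). The scanner tables are GenePix results per the file headers. Used from these deposited columns were foreground and background intensity, the signal-to-noise score, the percent of saturated pixels, and spot positions. Their annotation is turned end for end against the spots. As deposited, its rank correlation across probes with the value table was 0.0072 to 0.013, and turned it was 0.9904 to 0.9937, so the turned annotation was used. Further steps by the authors are not given in the sources used here.

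Values were quantile normalised between arrays, 50 was added to each and the log2 taken, in place of any log2 by the authors. RefSeq accessions or symbols named the genes, 12555 of 41000 probes had no name, and the brightest probe above background stood for its gene. A 3-group model was fitted with limma 3.58.1 in R 4.3.3 (5 residual and 3.83 prior degrees of freedom). P-values were adjusted by Benjamini-Hochberg over 13310 genes, or over 24771 probes for single probes, with a threshold of 0.05; intervals are 95%. A gene below background, or with saturated pixels, on every array of a group gives a bound only. That bound is not firm where the other group also holds arrays below background. Slides are not in the labels: mean horizontal spot positions form sets of 10930.1 to 10951 µm and of 10897.1 to 10904.5 µm. The number of arrays limits the precision. Deviations of same-numbered enzastaurin and control arrays correlated at 0.0869, 0.0249 and 0.168, so the numbers were not treated as pairs.

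Per-array values were due for up to 4 called members with the largest difference in each compartment and comparison, and in any case for HSPA1A, HSPA8, HSP90AA1, HSP90AB1, HSPB1, HSPD1, HSPE1, HSPA5, HSP90B1 and XBP1; of each related list, up to 2 called genes per comparison. Other genes given with per-array values, such as CHORDC1 and DNAJB1, and the smaller related-list genes were chosen after their values were seen. The alternatives covered the value source, scaling, offset, background filter, probe rule, groups in the fit, slide and replicate blocks, array weights and leaving out each array. The fit was also run on simulated data that held no slide effect, so that run cannot show how the fit handles the split by slide. Figures and motif searches used Python and matplotlib.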

Additional observations from a re-analysis of the deposited data

How the results depend on the processing

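Alternatives were compared by the number of the 38 members called. With slide as a block, enzastaurin against control gave 1 higher and 1 lower in place of 9 and 8, Go against control 5 higher and 2 lower in place of 6 and 5, and Go against enzastaurin 1 higher and 2 lower in place of 3 and 2. Fitting only the 2 groups compared left 1 higher and 0 lower for Go against control, with 1.63% of all genes called, by a fit with fewer arrays. Array weights gave 13 higher and 12 lower for enzastaurin against control (74.9% of all genes called), 2 lower for Go against control and 0 lower for Go against enzastaurin, and the mean of a gene's probes gave 1 higher for Go against enzastaurin. A replicate block, with replicate numbers that did not pair the arrays, gave 0 lower for Go against enzastaurin in place of 2, and 8 higher and 8 lower for enzastaurin against control. Leaving out each array in turn gave 1 to 6 lower for Go against control, and 0 to 3 higher and 0 to 4 lower for Go against enzastaurin. The causes of these shifts were not tested.

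Of the 21 members followed singly, HSPD1 turned with enzastaurin to -0.42 at 75th percentile scaling and -0.38 at median scaling, on its saturated probe, and with Go to 0.58 for the mean of its probes and 1.18 for its unsaturated probe, an alternative chosen after seeing the data. HSPE1 turned to -0.01 with slide as a block. BAG3 was called in all 20 alternatives in both comparisons with control, between 0.72 and 1.22 for enzastaurin and between 0.48 and 1.02 for Go. Over all genes, the share called for enzastaurin was 55.1%, and 3.46% with slide as a block. For Go against control it was 31.5%, 18.8% with no filter on dim probes, 5.94% with slide as a block (54.9% of those calls higher, in place of 37.6%) and 5.86% to 42.7% with 1 array left out; 77% of calls were higher with only the 2 groups compared. For Go against enzastaurin it was 7.18%, 3.7% with the replicate block, 3.99% with array weights and 1.56% to 12.6% with 1 array left out. Probes at saturation and probes near background limit HSPD1, HSPE1, HSPA1L, CRYAB and SEL1L.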
